A study of Mus musculus with 2 samples.

Results

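The genes described here are the NF-κB subunits and their feedback inhibitors in MIN6, an established mouse beta cell line. The 10 genes are the subunits Rela, Relb, Rel, Nfkb1 and Nfkb2, the IκB proteins Nfkbia, Nfkbib and Nfkbie, the atypical IκB protein Bcl3 and the ubiquitin-editing inhibitor Tnfaip3. They were chosen by name, and a probe was taken for a gene where its accession belongs to that gene in the RefSeq mouse annotation. This gave 14 probes among the 39417 of the array, for 10 of 20653 named genes. A single probe read 7 of the genes, Relb and Nfkb1 had 2 probes each, and Nfkbib had 3.

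The arrays compared MIN6 cells transduced with lentivirus from PLVX-IRES-ZsGreen-mFTO, which carries mouse Fto, with MIN6 cells transduced with virus from the empty PLVX-IRES-ZsGreen vector. The cells were at passages 15 to 20, descend from an insulinoma of a transgenic C57Bl/6 mouse, and in both groups carry the ZsGreen vector. Each group was represented by 1 sample on 1 array, so there is no estimate of the spread between cultures, no test was run across samples, and no p-value is given. The line is a tumour line, and the labels do not say how long after transduction the RNA was taken, only that green fluorescence was inspected at 48 h. Expression of the NF-κB genes bears on whether forced FTO expression alters this pathway in beta cells. The study examined this by immunoblot of phosphorylated IκBα and nuclear p65, also with a scavenger of reactive oxygen species. It also annotated the genes that differed on these arrays and measured Btk and Prkcq by quantitative PCR.

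NF-κB proteins are dimeric transcription factors held in the cytoplasm by IκB proteins. In the canonical arm, the IKK complex phosphorylates IκBα, which is then degraded, and dimers such as p65 with p50 enter the nucleus. In the non-canonical arm, the kinase NIK drives processing of p100, encoded by Nfkb2, to p52, which pairs with RelB. Many of these genes are themselves NF-κB targets, so that newly made IκBα, A20 and p100 shut the pathway down again. In beta cells the pathway is best known from the response to inflammatory cytokines.

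The promoters of these genes are shown first because transcription of several members is controlled through κB sites. RefSeq promoter sequences of GRCm38.p6, from 250 bases before to 50 bases after a transcription start, were at hand for 8 of the 10 genes (11 starts), and Relb and Nfkb1 are the genes left. The κB consensus was searched on both strands, and overlapping matches were joined. It was found at 8 of the 11 starts and in 6 of the 8 genes, against 4.51% of 32851 mouse promoters of this length and 5.14% of 27025 genes. Another κB pattern, GGG and TTCC with any 3 bases between them, was found at 8 of the 11 starts and in 5 of the 8 genes, against 5.56% of all promoters and 6.31% of genes. It overlaps the consensus in part, and each has matches that the other lacks. The last pair of the 3 starts of Nfkb2 lie close together, so 1 match is counted at both. Rela and Nfkbib had no match to the consensus in these windows. The following lines give 30 bases around matches to the consensus on the strand of the gene, 5′ to 3′, with the match in capitals.
Rel (chr11:23771041-23771070, minus strand): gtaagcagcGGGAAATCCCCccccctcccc
Nfkb2 (chr19:46304689-46304718, plus strand): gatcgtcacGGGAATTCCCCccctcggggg
Nfkb2 (chr19:46304716-46304745, plus strand): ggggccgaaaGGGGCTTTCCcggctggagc
Nfkbia (chr12:55492657-55492686, minus strand): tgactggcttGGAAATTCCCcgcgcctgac
Nfkbie (chr17:45555584-45555613, plus strand): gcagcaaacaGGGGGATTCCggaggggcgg
Bcl3 (chr7:19822734-19822763, minus strand): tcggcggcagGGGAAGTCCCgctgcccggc
Tnfaip3 (chr10:19015403-19015432, minus strand): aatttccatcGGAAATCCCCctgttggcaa

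Counted from the start, the match of Nfkbia lies at -29 to -20 and that of Tnfaip3 at -12 to -3 of its outermost start, which has a further match at -125 to -116. The joined match of Rel lies at -92 to -82 and the match of Nfkbie at -106 to -97. The matches shown for Nfkb2 lie at -39 to -29 and -11 to -2 of its outermost start in the table. The match of Bcl3 lies just after the start, at bases 3 to 12 of the transcript. The 250 bases upstream of Nfkbia (chr12:55492648-55492897, minus strand) are printed in full, since it encodes IκBα, the inhibitor whose phosphorylation was studied as a sign of activation, and its match is again in capitals.
Nfkbia: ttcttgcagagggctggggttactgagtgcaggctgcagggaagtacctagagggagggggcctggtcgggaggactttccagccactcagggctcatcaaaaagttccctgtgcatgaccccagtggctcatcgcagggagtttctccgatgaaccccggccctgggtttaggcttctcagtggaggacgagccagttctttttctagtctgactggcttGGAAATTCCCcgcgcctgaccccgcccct

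**Figure D1:**
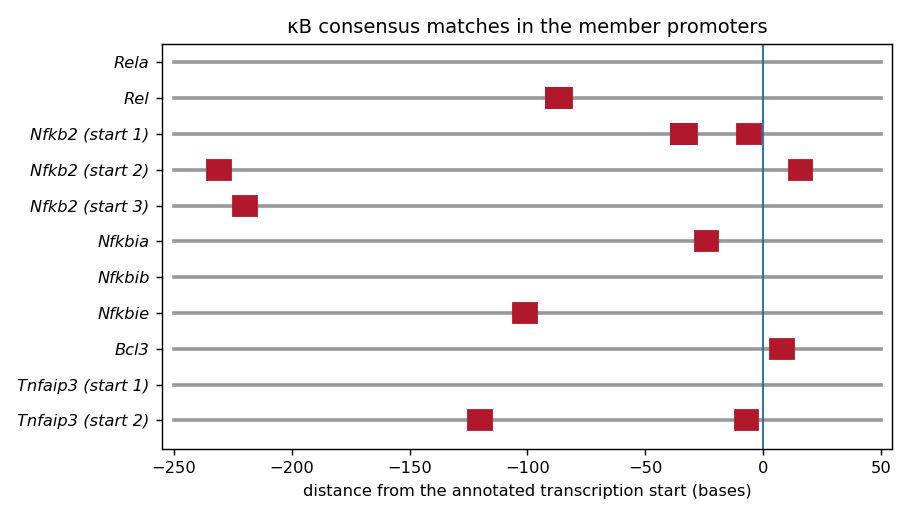
Each line is the window of a RefSeq transcription start, with the distance from the start in bases on the x axis and the start as a vertical line, and boxes mark matches to the κB consensus on either strand. Matches lie in 6 genes, with that of Nfkbia and the nearer match of the outermost start of Tnfaip3 (start 2) directly before the start, and Rela and Nfkbib have none.

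Tested probes are those well above background on either array. All 14 member probes were well above background on both arrays, and none was saturated. Of all probes, 82.0% were well above background on the FTO-labelled array and 84.9% on the control-labelled array. The FTO-labelled array was the brighter: without normalization the median log2 difference of all tested probes was 0.34, and it was 0.01 after quantile normalization. The differences below are taken after quantile normalization and given as FTO minus control on the log2 scale. The error given with them is the Feature Extraction error estimate of both spots combined, which for bright spots is close to 10% of the signal on each array and comes to 0.20. It covers the reading of a spot and not the spread between cultures. Fto itself had a signal of 7301 on the FTO-labelled array and 5179 on the control-labelled array, a log2 difference of 0.06 with an error of 0.20, so its probe is no check of which array is which, and the directions given here take the labels as they stand. All 18 beta cell markers, Ins1, Ins2 and Pdx1 among them, were well above background on both arrays. So were all 3 markers of other islet cells and all 4 exocrine markers, so this call does not set the cell type. The glucagon gene Gcg had signals of 257411 and 243558 on the FTO- and control-labelled arrays.

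None of the 14 member probes differed by more than 2-fold, a difference shown by 3.48% of 33844 tested probes. At a mean log2 signal of at least 8.5, where 13 of the 14 lie, 0.349% of 18321 tested probes differed by as much. Taking for each gene its brightest probe, the median log2 difference of the 10 genes was -0.08, with 3 genes above 0 and 7 below, and the values ran from -0.37 for Relb to 0.50 for Rel. The median over all 18513 tested named genes was 0.01, with 9553 above 0 and 8935 below. The difference was larger than the spot error at 5 of the 14 probes, 2 higher and 3 lower on the FTO-labelled array. That is 35.7% of the member probes, and the share over all tested probes was 31.9%, with 16.5% higher and 15.3% lower. Among the 13 brighter member probes the share was 30.8%, against 18.4% of all tested probes of that signal. In total RNA, a lower signal from fewer expressing cells and one from less RNA per cell cannot be told apart.

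**Figure D2:**
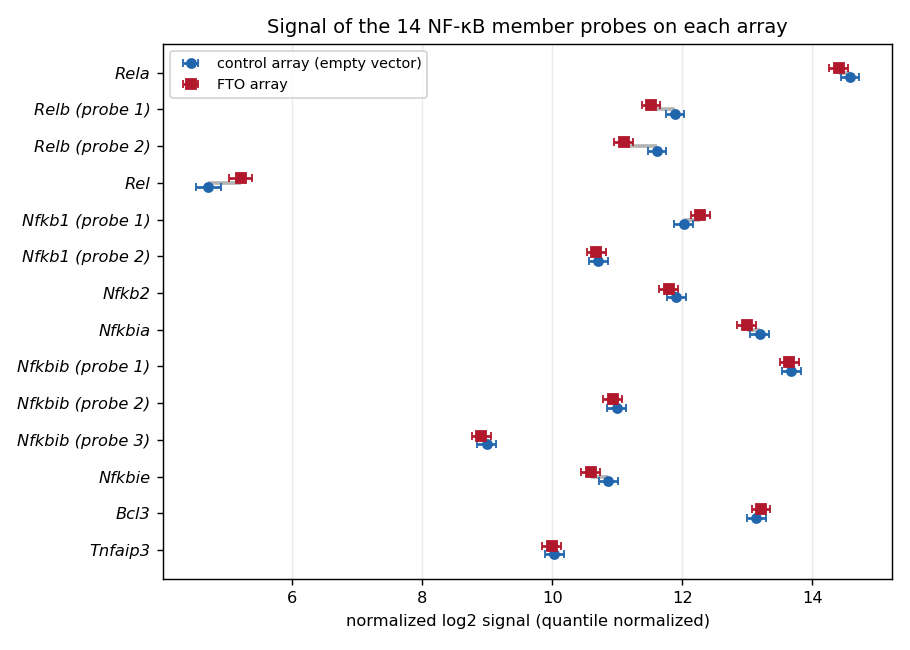
Normalized log2 signal (x axis) of each member probe on the FTO-labelled array (squares) and the control-labelled array (circles), with the Feature Extraction error of each spot as a bar. Rel is the dim member, at 5.21 and 4.71, and the widest gaps are those of Rel and of the second Relb probe, at 11.10 and 11.61.

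Probes with 10 spots on each array gave the scatter of spots within the arrays. At each repeated spot the difference between the arrays was formed, and the standard deviation over the spots of a probe had a median of 0.06 over 216 repeated probes with a mean log2 signal between 8.5 and 15. Over 66 repeated probes with a signal between 4 and 6, the range of Rel, it was 0.30. The median scatter of bright spots was therefore smaller than the error estimate of 0.20, while the highest among these bright probes was 0.26. These standard deviations describe the same 2 RNA samples and say nothing on the spread between cultures.

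Rela encodes p65, the subunit that carries the transactivation domain of the classical p65 and p50 dimer. Its probe (NM_009045) had a signal of 25464 on the FTO-labelled array and 20990 on the control-labelled array before normalization, and a normalized log2 signal of 14.41 and 14.58. The log2 difference was -0.17, or a relative difference of -10.8%, which is smaller than the spot error of 0.20. Of 1982 tested probes within 0.5 of its mean log2 signal, 18.1% lay at least as far from 0.

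Rel encodes c-Rel, a subunit best known from lymphocytes. Its probe (NM_009044) was dim, with signals of 38.1 and 25.5 on the FTO- and control-labelled arrays and a normalized log2 signal of 5.21 and 4.71. The log2 difference of 0.50 had a spot error of 0.26 and was the highest among the members. Probes this dim scatter widely, and 23.6% of 3512 tested probes of like signal lay at least as far from 0. With each array scaled by its 75th percentile the difference was 0.16, and with normexp background correction of the median spot signals it was 0.24. Of 8 leukocyte markers with a probe, 7 were well above background on both arrays and Lyz2 on neither, with a summed signal before normalization of 6110 on the FTO-labelled array and 4364 on the control-labelled array, of which Cd3e alone gave 3906 and 2388. After normalization the tested markers had a median log2 difference of -0.19, with -0.26 for the pan-leukocyte gene Ptprc (signals 33.7 and 38.0). Their part in the value of Rel was not tested.

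Relb encodes the transactivating partner of p52 in the non-canonical arm. Its brighter probe (NM_009046) had signals of 3359 and 3270 on the FTO- and control-labelled arrays, a normalized log2 signal of 11.52 and 11.89 and a difference of -0.37. Its dimmer probe, for the same accession, had signals of 2519 and 2710, a log2 signal of 11.10 and 11.61 and a difference of -0.51. Both probes were lower on the FTO-labelled array by more than the spot error of 0.20, with relative differences of -22.7% and -29.5%, and they differed from each other by 0.13. The dimmer probe is the only 1 of the 14 whose signal was lower on the FTO-labelled array also before normalization. Of tested probes of like signal, 3.27% lay at least as far from 0 as the brighter probe and 1.45% as far as the dimmer. Both spots lie outside the areas where repeated spots lost signal, the brighter in the column next to one, and the median difference of the tested probes around them on the array was -0.02 and -0.04.

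**Figure D3:**
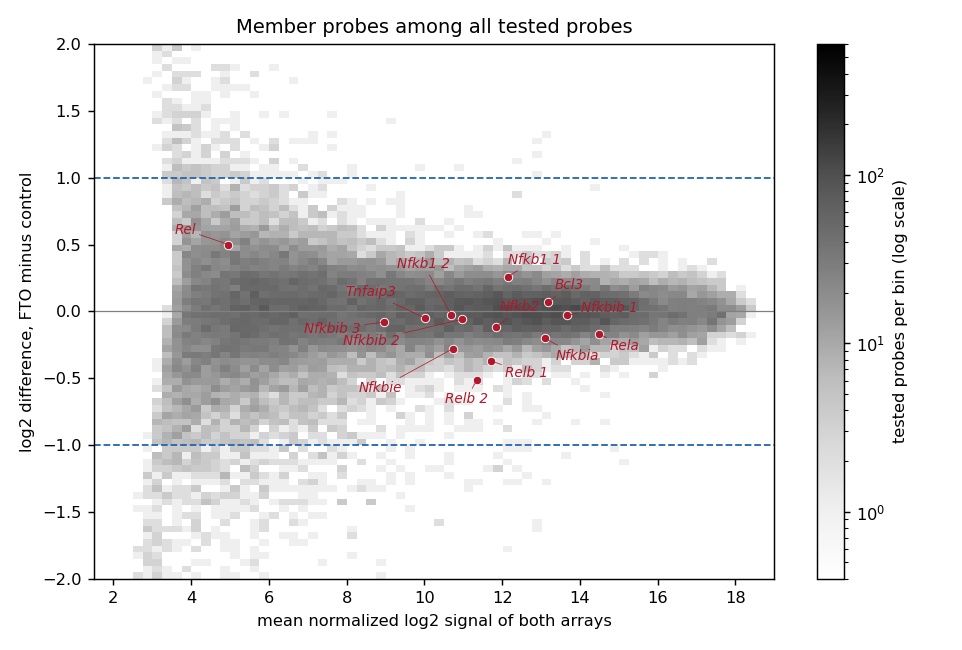
Log2 difference, FTO minus control (y axis), against the mean normalized log2 signal (x axis) for tested probes, shaded by their number, with the member probes as points, numbered where a gene has several, and dashed lines at a 2-fold difference; 323 tested probes lie beyond the y axis. The Relb probes sit at -0.37 and -0.51 near the lower edge of the probes of like signal, while Rel, at 0.50, sits where the spread is wide.

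Nfkb1 encodes p105, the precursor of p50, and its probes did not give the same value. The brighter probe (NM_008689) had signals of 5765 and 3591 on the FTO- and control-labelled arrays, a normalized log2 signal of 12.28 and 12.02 and a difference of 0.26, above the spot error of 0.20. The dimmer probe, for the same accession, had signals of 1883 and 1450, a log2 signal of 10.68 and 10.71 and a difference of -0.03. The probes lay 0.29 apart, which is also the combined error of both differences, and the mean over both probes was 0.11, inside the spot error. The files do not give the part of the transcript that each probe reads.

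Nfkb2 encodes p100, which acts as an IκB protein until it is processed to p52. Its probe (NM_019408) had signals of 4100 and 3332 and a normalized log2 signal of 11.79 on the FTO-labelled array and 11.91 on the control-labelled array. The difference of -0.12 was smaller than the spot error, and 41.7% of 2682 tested probes of like signal lay at least as far from 0.

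Nfkbia encodes IκBα, the inhibitor that NF-κB itself induces. Its probe (NM_010907) had signals of 9427 and 8059 and a normalized log2 signal of 12.99 on the FTO-labelled array and 13.19 on the control-labelled array. The difference was -0.20, a relative difference of -13.1%, which is of the size of the spot error, and 14.4% of 2707 tested probes of like signal lay at least as far from 0. The spot lies in an area where repeated spots lost signal on the FTO-labelled array, while the median difference of the 279 tested probes around it was 0.00.

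Nfkbib encodes IκBβ, an inhibitor that is degraded more slowly than IκBα. Its 3 probes (NM_010908) had normalized log2 signals of 13.65 and 13.68, 10.93 and 10.99, and 8.91 and 8.99 on the FTO- and control-labelled arrays. The differences of -0.03, -0.06 and -0.08 were all well inside the spot error of 0.20 and lay within 0.05 of one another. All 3 spots lie in the area of lost signal.

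Nfkbie encodes IκBε, a further inhibitor that NF-κB induces. Its probe (NM_008690) had signals of 1762 and 1621 and a normalized log2 signal of 10.59 on the FTO-labelled array and 10.86 on the control-labelled array. The difference of -0.28, a relative difference of -17.5%, was larger than the spot error of 0.20, and 10.4% of 2336 tested probes of like signal lay at least as far from 0. All 3 IκB genes thus had a lower normalized signal on the FTO-labelled array, with a median of -0.20, as did 8935 of 18513 tested named genes. Nfkbie was the only 1 of them past the spot error. Nfkbib lay near 0, and the spots of Nfkbia, which sets the median, and of Nfkbib lie in areas of lost signal.

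Bcl3 encodes a nuclear IκB protein that binds p50 and p52 dimers. Its probe (NM_033601) had signals of 10996 and 7745 and a normalized log2 signal of 13.21 and 13.14 on the FTO- and control-labelled arrays, a difference of 0.07. The spot lies in an area of lost signal on the control-labelled array, and the 269 tested probes around this spot had a median difference of 0.07 as well. Tnfaip3 encodes A20, which edits ubiquitin chains on signalling proteins upstream of IKK. Its probe (NM_009397) had signals of 1153 and 920, a log2 signal of 9.99 and 10.03 and a difference of -0.05. Both genes lay inside the spot error of 0.20.

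Across genes with several probes, a median disagreement of 0.11 separated the differences of 2 probes of the same gene, over 3917 pairs of 2795 genes in which each probe was well above background on the FTO- and the control-labelled array and had a mean log2 signal of at least 8.5. The Nfkb1 probes were farther apart than most, since 11.3% of these pairs disagreed by at least as much. The Relb probes were unremarkable in their distance, which 41.7% of pairs reached or passed, and the Nfkbib probes were close, with 73.6% of pairs at least as far apart as the most distant of them. Both probes at or below -0.37, as for Relb, occurred in 6 of the 3917 pairs (0.153%), a limit set at Relb's own brighter probe after its value had been seen.

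The canonical members (Rela, Rel, Nfkb1, Nfkbia, Nfkbib and Nfkbie) had a median log2 difference of -0.10 and a range of -0.28 to 0.50. The non-canonical members had differences of -0.37 (Relb) and -0.12 (Nfkb2), with a median of -0.25. The medians lay 0.15 apart, which is less than the spot error of a single probe. Relb was below all 6 canonical members and Nfkb2 was within their range, so the arms overlapped. The canonical members stayed higher in each of 11 other ways of processing, with a distance of 0.15 to 0.29. The widest, 0.29, came from leaving out the areas of lost signal, which leaves no value for Nfkbia and Nfkbib. The floor of 5, the changed background filters, the kept outlier spots and the deposited processed values returned the main distance of 0.15. All member probes were well above background on both arrays, so the filters and the floor had no way to change it.

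Normalization set the direction of most members. With signals as deposited, 13 of the 14 probes were brighter on the FTO-labelled array, with a median log2 difference of 0.31, which is below the median of 0.41 for all tested probes with a mean log2 signal of at least 8.5. After quantile normalization 3 probes were higher and 11 lower, while of all 33844 tested probes 17370 were higher and 16444 lower. The normalizations themselves agreed closely: over 75th percentile scaling, cyclic loess, normexp, a floor of 5, the deposited processed values and subtraction of a local median, none of the 13 brighter member probes moved by more than 0.11. The floor of 5 and the deposited values are not separate normalizations. The floor was followed by the same quantile normalization, and the deposited values differed from that setting by a mean absolute 0.00078. Nfkbib, Bcl3, Tnfaip3 and the dimmer Nfkb1 probe lay closest to 0, and Nfkbib stood at 0.00 with cyclic loess.

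**Figure D4:**
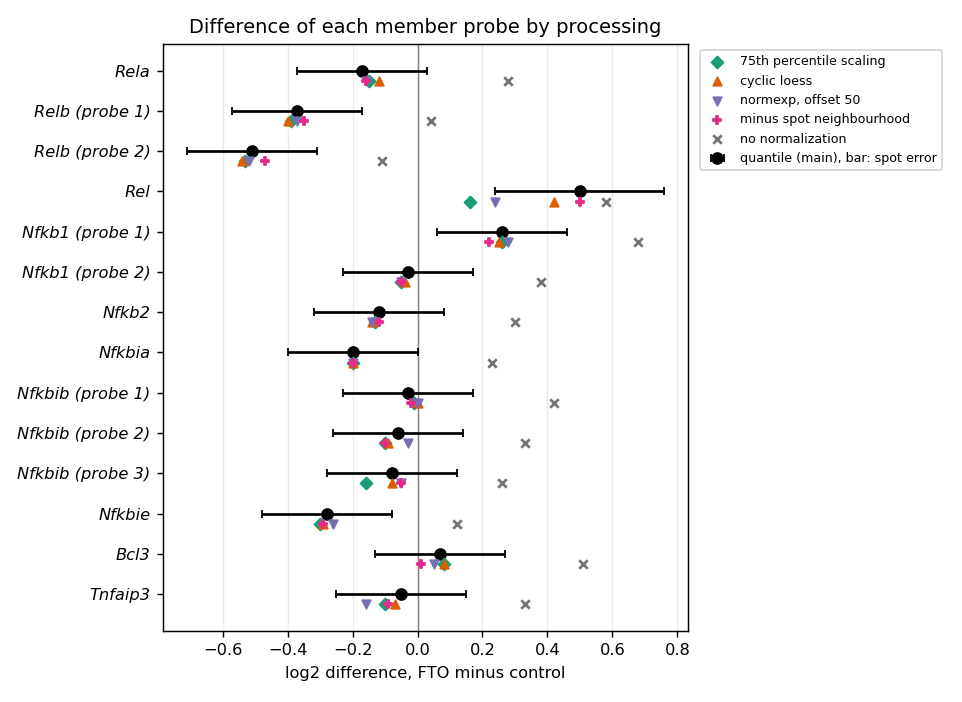
Log2 difference, FTO minus control (x axis), of each member probe after quantile normalization (circles, with the spot error as a bar) and under other processing. Relb stays near -0.4 and -0.5 in each normalization, Rel moves from 0.50 to 0.16 with 75th percentile scaling, and signals with no normalization (crosses) lie to the right for 13 probes above 0.

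The rest of the pathway was described with gene lists that follow textbook roles, using the brightest probe of each gene. With 1 array a group, a gene is counted as differing where it is past 2-fold, as were 2.68% of the 18513 tested named genes (1.09% higher), or past its spot error, as were 27.8% (14.3% higher and 13.5% lower). Of these 18513 genes, 9553 lay above 0 and 8935 below, which is the measure for the counts of direction that follow. In the list of 12 genes of the IKK complex, its relatives and its upstream kinases with their adaptors, all were well above background on both arrays, none differed by more than 2-fold, and the median was -0.01. The catalytic subunits Chuk (IKKα) and Ikbkb (IKKβ) had differences of 0.13 and -0.17, and the regulatory subunit Ikbkg (NEMO) of 0.04. The highest values were those of Chuk and of Tab3 (0.10), an adaptor of the kinase TAK1. The lowest were those of Map3k14 (-0.32), which encodes NIK, and Map3k3 (-0.24), and these 2 were the only genes of this list past the spot error. The spot of Map3k14 lies in an area of lost signal on the FTO-labelled array, as do those of Ikbkg and, among genes named from the lists that follow, Cops5, Btk, Traf1, Xiap, Birc3, Nkrf and Tnip2.

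Among 9 genes of the ubiquitin ligase that degrades IκB and of p105 and p100 processing, 7 lay above 0 and 2 below, and the median was 0.04. Past the spot error lay 1 higher and 1 lower gene. Btrc, which encodes the F-box protein β-TrCP that recognizes phosphorylated IκBα, had signals of 2556 and 1519 on the FTO- and control-labelled arrays and a difference of 0.35, past the spot error of 0.20. Its paralog Fbxw11 had 0.10 and Cops5, a subunit of the COP9 signalosome, 0.18. The lowest values were those of Rnf123 (-0.20) and Ube2m (-0.17), an enzyme of NEDD8 conjugation.

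Of 30 receptors and adaptors, 29 were tested, with a median of 0.09, 18 above 0 and 11 below. Past the spot error lay 5 higher and 4 lower genes, and 2 were past 2-fold. These were Prkcq, a protein kinase C isoform, with signals of 44.6 and 17.4 and a difference of 1.29, and the tyrosine kinase Btk, which was well above background only on the FTO-labelled array and at least 2.15-fold higher there. The difference of Prkcq was 0.93 with 75th percentile scaling and 0.06 with normexp, and that of Btk, whose spot lies in an area of lost signal, was 1.33 and 0.46, so neither was past 2-fold with normexp. The study had picked both genes as higher with FTO from these same arrays, and then reported them higher by quantitative PCR. Their values here are therefore no separate support for a difference. The double-stranded RNA receptor Tlr3 had a difference of 0.57. The lowest values were those of Tnfrsf12a (-0.46), the receptor of TWEAK, which can signal through NIK, and of the adaptor Traf1 (-0.40).

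The list of 16 ubiquitin editors and related feedback genes had 15 tested members, a median of 0.01 and no 2-fold difference. Usp18, an interferon-induced protease, had the highest value at 0.34, followed by Rnf11 (0.19), a partner of A20. The A20-binding proteins Tnip3 (-0.23) and Tnip2 (-0.11) had the lowest. Of 10 other IκB-like and nuclear regulators, the median was -0.06, with Nkap (0.23) and Nkrf (0.18) highest and Ppp4c (-0.51) and Nkapd1 (-0.29) lowest.

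The target genes outside the members, 25 tested of 30, had a median of 0.02, with 14 above 0 and 11 below. Il1a alone was past 2-fold. Its probe was well above background on the FTO-labelled array only, and it was at least 7.94-fold higher there in the quantile-normalized signals, where its difference was 5.00. With normexp the difference was 1.17, below that bound and still past 2-fold. The study had listed Il1a among the genes most raised on these same arrays, so its value is no separate support either. Il1b (0.30) and the death receptor Fas (0.17) had the highest values among genes well above background on both arrays, and the cytokine Tnf (-0.45) and Junb (-0.44), an AP-1 subunit, the lowest. These are dim probes, and with normexp Tnf stood at -0.13, inside its spot error of 0.28, and Junb at -0.23, while with 75th percentile scaling they stood at -0.79 and -0.71. Fas was at -0.09 with 75th percentile scaling. Past the spot error lay 2 higher and 4 lower genes. The adhesion molecule Icam1 (-0.24), the nitric oxide synthase Nos2 (0.04) and the chemokines Cxcl10 (-0.18) and Ccl2 (0.05) were inside their spot error, and Icam1 stood at 0.07 with normexp and -0.54 with 75th percentile scaling. Xiap, Birc3 and Traf1 stand in this list and in that of receptors and adaptors.

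**Figure D5:**
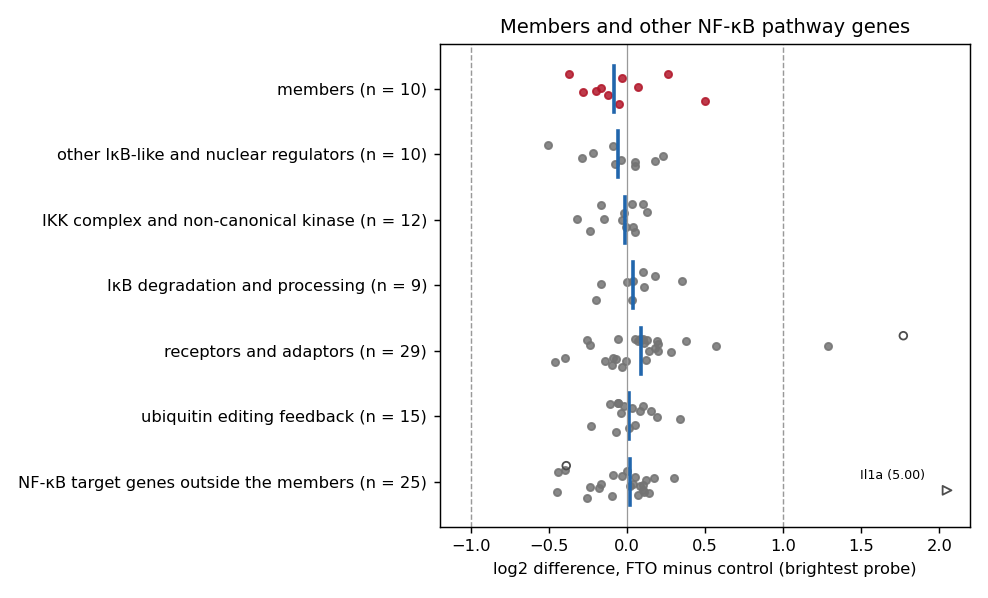
Log2 difference, FTO minus control (x axis), of the brightest probe of each gene for the members and for 6 lists of pathway genes, with the median of each as a vertical bar, dashed lines at 2-fold and open symbols where only 1 array was well above background. All medians lie between -0.08 and 0.09, and Prkcq, Btk and Il1a are the only genes past 2-fold with quantile normalization, and with normexp Prkcq (0.06) and Btk (0.46) are not.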

How the data were processed

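RNA of MIN6 cells was hybridised, with Cy3, to 2 single-color Agilent arrays, 1 a condition, on the same slide and in the same scan. The authors read the scanned array images with Agilent Feature Extraction 11.0.1.1, and the deposited intensity columns hold its background-subtracted processed signal and error for each spot. The deposited log2 values of the series table cover 33870 probes, with a median of 9.13 on both arrays, and were made by the authors with GeneSpring. The authors' own comparison values were not used.

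Control spots and spots called outliers (148 and 141 on the FTO- and control-labelled arrays) were left out of 43020 spots an array. Signals were put on the log2 scale, averaged over the spots of a probe and quantile normalized (limma 3.58.1, R 4.3.3). Normexp, an alternative, was run on the deposited median spot and background signals, since the mean signal was not at hand. Probes were named through their accession, 27224 of 39417 with a gene. Tables and figures were made with Python 3.11.15, pandas 2.3.3, numpy 2.4.6 and matplotlib 3.10.9, and the steps were tested on simulated data. An area of lost signal is a block of 76 rows and 17 columns in which at least 15% of the spots of repeated probes lay more than 0.5 (log2) below the median of their probe on that array, over probes with a median log2 signal of 4.5 to 8.

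The members and lists were chosen with earlier results of these data known. The named genes were all members, and of each list the 2 highest and 2 lowest well above background on both arrays, with any gene past 2-fold. Fbxw11, Ikbkb, Ikbkg, Icam1, Nos2, Cxcl10 and Ccl2 were named in addition, after their values were seen. Bounds for probes well above background on 1 array use the lowest signal well above background on the dim array, or the probe's own where that is higher. With 1 array a condition, the precision rests on the spot error and on the number of arrays.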

Additional observations from a re-analysis of the deposited data

How the results depend on the processing

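No paired analysis was possible because each condition had 1 array, and for the same reason no replicate could be left out. Over 11 other ways of processing the number of member probes past 2-fold was 0 in each, the median of the members ran from -0.15 to -0.08, Relb from -0.51 to -0.37, Nfkbie from -0.30 to -0.26 and Nfkb1 from 0.11 to 0.28. A value counted as moved where it shifted by more than the combined spot error. Over these and 3 more ways added after seeing the data (no normalization, a local signal reference and the spot neighbourhood), this held for 12 values and not for 233: Rel was 0.16 with 75th percentile scaling and 0.24 with normexp (offset 50), and the other 10 came from signals without normalization. There the median of the members was 0.31, and the differences were 0.28 for Rela, 0.04 for Relb, 0.68 for Nfkb1, 0.30 for Nfkb2, 0.23 for Nfkbia, 0.42 for Nfkbib, 0.12 for Nfkbie, 0.51 for Bcl3 and 0.33 for Tnfaip3, while all tested probes had a median of 0.34. Many of the 233 are the main value repeated. The medians of the gene lists are counted among the 233, but they were run over the 11 ways only and not over the 3 added ones. They were judged against the spot error of a single probe, which is a wide limit for a median. The floor of 5, the changed background filters and the kept outlier spots left every member value as it was. To the digits given, so did the deposited processed values. With the areas of lost signal left out, Nfkbia, Nfkbib and Bcl3 gave no value. Low signal limits Rel, and the single array a condition limits every difference.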

Other observations

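Genes of the non-canonical arm outside the members were set beside Relb and Nfkb2 after their values had been seen, so they are a description only. Tnfrsf12a, the TWEAK receptor, read 9674 with FTO and 9857 in the control, which after normalization is a log2 difference of -0.46. Map3k14, which encodes NIK, had signals of 776 and 747 and a difference of -0.32, in an area of lost signal. The other receptors that can signal through NIK lay near 0, with -0.07 for Ltbr, 0.10 for Cd40, -0.03 for Tnfrsf11a and 0.12 for Tnfrsf13c. Of the complex that degrades NIK, Traf3 was at 0.20, Traf2 at -0.24, Birc2 at 0.07 and Birc3 at -0.09. The arm thus held values on both sides of 0.

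Over all tested genes with a promoter in the table, those with and without a κB match had close medians. For the consensus, the 865 tested genes with a match had a median log2 difference of 0.00 with 50.8% above 0, and the 13793 without had a median of 0.01 with 51.7% above 0. For the other pattern, GGG and TTCC with any 3 bases between them, the 974 genes with a match had a median of 0.02 with 55.3% above 0, and the 13684 without had 0.01 with 51.4% above 0. These shares were not tested.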
